A study of Mus musculus with 7 samples.

Results

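Cytochrome P450 enzymes of families 1 to 4 were followed in mouse liver over 24 h through their mRNAs. Members were the genes whose probe set carries a single symbol that starts with Cyp, a family number from 1 to 4, letters and a number, and each gene had 1 such probe set, so that 70 genes were taken from 21789 probe sets that name 1 gene each, among 35556 probe sets in all. The symbols include the pseudogenes Cyp2d37-ps and Cyp4f41-ps and fall into 21 subfamilies, named here by the family number and the letters that follow. Livers came from male C57/BL6 mice, given as 9 to 11 weeks old in the labels and as 12 to 14 weeks old at sacrifice in the methods, which were kept under 12 h of light and 12 h of dark and fed only between ZT12 and ZT24 for 7 days, where ZT is the time in hours after lights on. All groups shared this regimen, and they were 7 arrays spaced by 4 h from ZT02 to ZT26, of which the last repeats the hour of ZT02 a day later. Each time point was 1 Mouse Gene 1.0 ST array hybridised with 1 pool of RNA from 5 livers, and no time point had a second pool, so that differences between mice are averaged within a pool.

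P450 enzymes of these families are heme proteins of the endoplasmic reticulum that insert an oxygen atom into their substrates with electrons passed on by the reductase Por and by cytochrome b5. In the liver, families 1 to 3 are known for the oxidation of drugs, other foreign compounds and steroids, and family 4 for the oxidation of fatty acids at their far end. Several genes are read out as targets of ligand-activated receptors, such as Cyp1a1 and Cyp1a2 for the aryl hydrocarbon receptor Ahr, Cyp2b10 and Cyp2c55 for the constitutive androstane receptor Nr1i3, Cyp3a11 for the pregnane X receptor Nr1i2, and Cyp4a10 and Cyp4a14 for the fatty acid receptor Ppara. The genes lie in clusters of near copies, so that probes of a member can also bind mRNA of its neighbours, and each value below is that of a probe set whose share of signal from related genes is not known.

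The promoters of the genes on which the account turns are shown first, as those of the called genes and of Cyp2b9, whose range was the widest. Cyp4a14 and the other Cyp4a genes above the expression minimum had no entry in the promoter table. Sequences are those of RefSeq on GRCm38.p6, from 250 bases before to 50 bases after the gene start, and 54 of the 70 members had an entry. Cyp2b10 (chr7:25897408-25897707, plus strand), Cyp2b9 (chr7:26173159-26173458, plus strand), Cyp2a5 (chr7:26835089-26835388, plus strand) and Cyp2c55 (chr19:39006769-39007068, plus strand) read as follows, with the run TTGCATAA, or the aligned run in Cyp2b9, in capitals.
Cyp2b10: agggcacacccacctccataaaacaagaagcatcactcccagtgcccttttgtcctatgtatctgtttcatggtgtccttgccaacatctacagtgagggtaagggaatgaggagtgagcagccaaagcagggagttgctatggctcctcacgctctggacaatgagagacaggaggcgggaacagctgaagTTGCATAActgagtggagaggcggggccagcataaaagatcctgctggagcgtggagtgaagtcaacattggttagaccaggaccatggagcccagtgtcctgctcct
Cyp2b9: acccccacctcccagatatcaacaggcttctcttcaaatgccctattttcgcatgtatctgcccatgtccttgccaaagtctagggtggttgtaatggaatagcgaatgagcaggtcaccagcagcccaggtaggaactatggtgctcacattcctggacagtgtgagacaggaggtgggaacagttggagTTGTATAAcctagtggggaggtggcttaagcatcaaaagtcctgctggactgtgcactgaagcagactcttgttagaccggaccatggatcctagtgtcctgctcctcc
Cyp2a5: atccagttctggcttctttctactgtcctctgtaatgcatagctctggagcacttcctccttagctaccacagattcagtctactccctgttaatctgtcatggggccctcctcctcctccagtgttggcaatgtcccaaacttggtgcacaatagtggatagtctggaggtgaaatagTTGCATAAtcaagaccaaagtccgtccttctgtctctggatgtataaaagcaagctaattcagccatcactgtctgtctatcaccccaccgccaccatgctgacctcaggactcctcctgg
Cyp2c55: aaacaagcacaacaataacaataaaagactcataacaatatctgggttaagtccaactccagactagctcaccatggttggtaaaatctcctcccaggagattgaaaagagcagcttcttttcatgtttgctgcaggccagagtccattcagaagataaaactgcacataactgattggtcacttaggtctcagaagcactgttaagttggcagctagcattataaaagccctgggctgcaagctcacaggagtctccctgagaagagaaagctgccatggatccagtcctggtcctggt
The run TTGCATAA begins 58 bases before the start of Cyp2b10 and 71 bases before that of Cyp2a5. Cyp2b9 differs from it by C4T, counted from 1 at the 5′ end of the run, and the Cyp2b10 and Cyp2b9 promoters were identical at 220 of 304 aligned positions (72.4%). The promoter of Cyp2a4 is not printed because it matched that of Cyp2a5 at 294 of 300 positions (98.0%) and holds the same run. Cyp2c55 does not hold it. These letters were chosen after the sequences had been read, that of Cyp2b10 among them. Cyp2b10 thus holds them by choice, so the share in members below cannot be weighed against that of all genes. On both strands, 240 of 27025 genes with a promoter in the table hold them (0.888%), and so do 4 of the 54 members (7.41%), namely Cyp2b10, Cyp2b19, Cyp2b23 and Cyp4f14. Of the motifs listed for the search, the D-box TTATGTAA, the other D-box TTACGTAA and the PPAR element, AGGTCA repeated after 1 base, were in 0 of the 54 members, against 1.11%, 0.126% and 0.0481% of all genes. The 5 Cyp4a genes, Cyp4a10 and Cyp4a14 among them, are not in these 54. The E-box CACGTG was in Cyp2j6 only (8.09% of all genes), and the aryl hydrocarbon receptor core GCGTG was in 13 members (24.1%), Cyp2b10 and Cyp1a1 among them, against 35.2% of all genes. The HNF1 element, GTTAAT and then ATTAAC after 1 base, was in 0 members (0.0111% of all genes) and the same element without its last 3 bases in Cyp4f40 (0.470%). A match in letters is a description of the window and does not show a binding site.

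Of the 70 members, 44 had a mean above 85 units, the minimum for expressed mRNA in the methods, on the natural scale over the 7 arrays. They came from 15 subfamilies, and 30 of them had means above 1000 units. Among the high signals were Cyp2e1, which oxidises ethanol and small solvents, with a mean of 15399 units, Cyp2f2, an enzyme of naphthalene oxidation, with 13617 units, Cyp2d26 with 12085 units, Cyp2c23, an epoxygenase of arachidonic acid, with 9258 units, Cyp3a11, the main steroid and drug hydroxylase of its subfamily, with 9080 units, Cyp2c29 with 8993 units and Cyp1a2, which oxidises caffeine and aromatic amines, with 7017 units. Probe sets differ in how strongly their probes bind, so signals of different genes were not ranked as mRNA amounts. Just inside the minimum were Cyp2s1 with 87.3 units and Cyp2c39 with 89.0 units, and just outside it were Cyp4f18 with 74.6 units and Cyp2w1 with 69.9 units.

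The other members stood at or below the minimum. All measured members of the Cyp1b, Cyp2ab, Cyp2g, Cyp2t, Cyp2w and Cyp4x subfamilies were among these 26 genes. The group also held Cyp1a1, at 38.4 units, Cyp2a22, Cyp2b13, Cyp2b19 and Cyp2b23, Cyp2c65 and Cyp2c66, Cyp2d11, Cyp2d12 and Cyp2d34, Cyp2j11, Cyp2j12 and Cyp2j13, Cyp3a16 and Cyp3a57, and Cyp4f18, Cyp4f37, Cyp4f39, Cyp4f40 and the pseudogene Cyp4f41-ps. Means of 16 of the 26 did not exceed 43 units, the background level in the methods. Cyp2a22 varied most among them, with 83.7 units at ZT10 and 90.7 units at ZT18 against 46.4 to 49.2 units on the other arrays. Rhythms were not tested in genes below the minimum.

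Most P450 mRNAs varied little through the day, to an extent near that of the tested probe sets as a whole. The median amplitude of the 44 members, taken as the fitted distance from mean to peak of a 24 h cosine in log2, was 0.08 (quartiles 0.05 and 0.14), and that of all 12076 tested probe sets was 0.09 (quartiles 0.05 and 0.17). As a ratio of highest to lowest array, the median was 1.21 in members and 1.24 in all tested probe sets. Cyp2e1, for example, measured 14731, 15338, 15413, 16166, 15546, 15281 and 15319 units from ZT02 to ZT26. In log2 these values were 13.85 to 13.98, near the highest of any probe set on each array (14.40 to 14.48). Whether swings are narrowed at such high signals was not tested. Cyp2c23 and Cyp2d26 had amplitudes of 0.05 and 0.04 (standard errors 0.03 each). Cyp2f2 varied by 1.03-fold and Cyp2a12, a steroid hydroxylase, by 1.05-fold. In 39 of the 44 members the highest array was at most 1.49-fold above the lowest, with amplitudes from 0.01 to 0.22.

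Rhythms were called with limma from the cosine and sine terms tested together, at an adjusted p under 0.05 after Benjamini-Hochberg adjustment over 12076 probe sets, those of 1 gene each whose mean was over 85 units. By this rule 2 of the 44 members were rhythmic (4.55%), and over all tested probe sets 540 (4.47%), so that the share in the family was near that of the whole table. The peak was in the dark for 1 member, Cyp2b10, against 2.49% of all tested probe sets, and in the light for 1 member, Cyp2c55, against 1.98%. At an unadjusted p under 0.05 there were 5 members, against 25.7% of all tested probe sets. By Fisher's test for one period, the test of the methods, 7 members had an unadjusted p under 0.05, against 17.4% of all tested probe sets, and the thresholds of the methods (an unadjusted p under 0.25 in that test and over 1.5-fold between highest and lowest array) were passed by 2 members (4.55%), against 13.6% of all. Highest over lowest array exceeded 1.5-fold in 5 members (11.4%, against 16.3% of all) and 2-fold in 3 (6.82%, against 4.27% of all), which were Cyp2b9, Cyp2b10 and Cyp4a14. Of the 30 members above 1000 units, limma called 0, against 151 of 2262 tested probe sets above 1000 units (6.68%). At an unadjusted p under 0.05 there were 3 of the 30 (Cyp3a25, Cyp3a13 and Cyp4f14), against 25.7% of all tested probe sets at any signal.

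**Figure D1:**
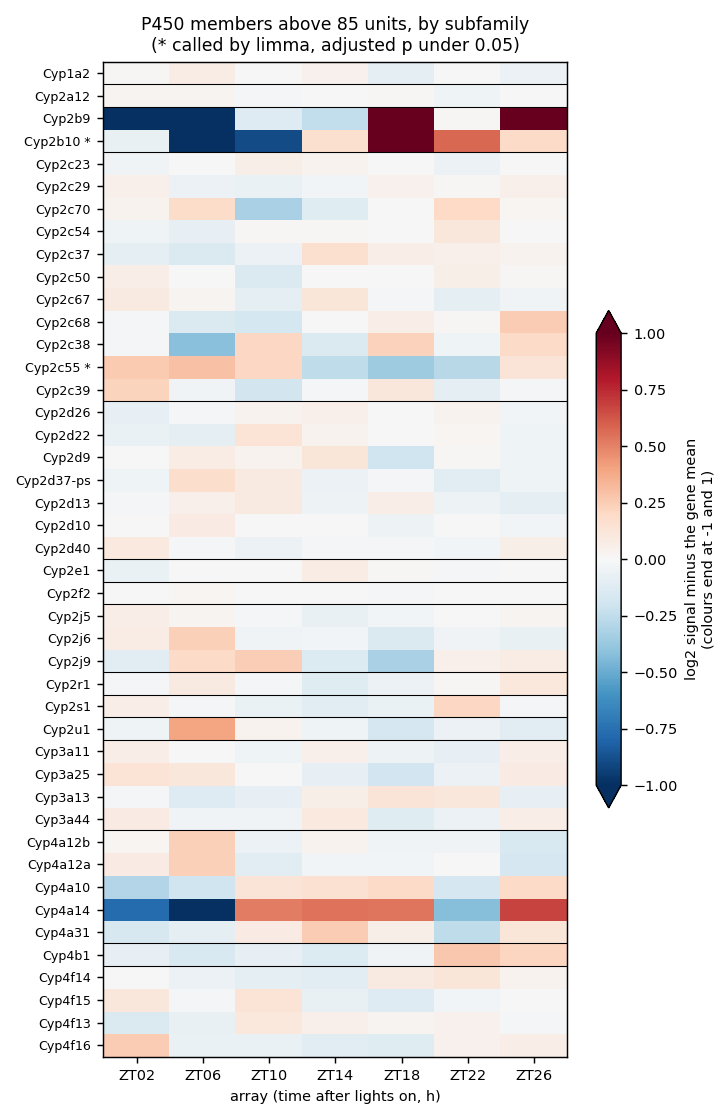
Log2 signal of the 44 members above 85 units on each array minus the mean of the gene, with arrays in time order across and members grouped by subfamily down the page, and an asterisk at members called rhythmic. Most genes are pale throughout, while Cyp2b9, Cyp2b10 and Cyp4a14 reach the ends of the colour scale or come near them.

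Cyp2b10, the classic P450 induced by phenobarbital in mouse liver, had the widest called rhythm of the family. Its signal was 439.6, 214.0, 248.5, 516.5, 1035, 689.9 and 528.8 units from ZT02 to ZT26. The highest value lay in the middle of the dark and the lowest at ZT06, and all 3 dark arrays were above the ZT02, ZT06 and ZT10 arrays. The ZT26 array, in the light, was above the dark ZT14 array, so that light and dark arrays overlapped. Highest over lowest was 4.84-fold, and the fitted amplitude of 1.09 (standard error 0.11) gives 4.52-fold between fitted peak and trough. The peak fell at ZT19.60 (standard error 0.345 h, limma, adjusted p = 0.0186). The call was lost without ZT02 (adjusted p 0.0682), ZT06 (0.0667), ZT10 (0.0634), ZT14 (0.0743) or ZT18 (0.0619) and kept without ZT22 or ZT26. With 1 array left out the peak stayed between ZT19.26 and ZT19.81.

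Cyp2c55, an epoxygenase and hydroxylase of arachidonic acid, moved the other way. It measured 355.8, 363.5, 342.2, 248.7, 231.3, 244.6 and 324.7 units from ZT02 to ZT26. The 4 light arrays were all above the 3 dark arrays, with the highest at ZT06 and the lowest at ZT18, the times at which Cyp2b10 was lowest and highest. The amplitude was 0.38 (standard error 0.04), which gives 1.69-fold between fitted peak and trough, and the peak fell at ZT6.00 (standard error 0.406 h, limma, adjusted p = 0.0247). Without ZT22 the call was kept (adjusted p 0.0446). It was lost without ZT02 (0.0646), ZT06 (0.0602), ZT10 (0.0572), ZT14 (0.0835), ZT18 (0.0634) or ZT26 (0.0710), while the peak stayed between ZT5.74 and ZT6.30.

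The Cyp2c55 call was not shared by its measured neighbours. In GRCm38.p6 the 13 members of the Cyp2c subfamily lie on chromosome 19, where Cyp2c55 is followed by Cyp2c65 and Cyp2c66, both under 85 units, and past a pseudogene by Cyp2c29, whose amplitude was 0.06 (standard error 0.03). Of the 11 Cyp2c genes above the minimum, 10 were not called, with amplitudes from 0.02 in Cyp2c67 to 0.17 in Cyp2c70. Cyp2c70, which hydroxylates bile acids in mice, had its lowest value of 6089 units at ZT10 and its highest of 8723 units at ZT22 (adjusted p = 0.288). Cyp2c38 ranged over 1.57-fold, with 602.1 units at ZT06 and 943.6 units at ZT18, but without a smooth course (adjusted p = 0.776). Cyp2b10 lies on chromosome 7, and of the Cyp2b genes there Cyp2b13, Cyp2b19 and Cyp2b23 were under 85 units and not tested.

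Cyp2b9, the remaining Cyp2b gene above 85 units and a form with more mRNA in female than in male mouse liver, varied more than any other member but not as a cosine. Its 7 values were 169.4, 69.97, 318.9, 293.5, 1426, 352.2 and 1132 units from ZT02 to ZT26. The ZT18 and ZT26 arrays stood above the other 5, with the ZT22 array between them low. Highest over lowest was 20.4-fold. The amplitude of 1.33 had a standard error of 0.64, and the fit was not called (limma, adjusted p = 0.391, and 0.162 to 0.799 with 1 array left out). The ZT18 and ZT06 arrays were the highest and the lowest for Cyp2b9 and Cyp2b10 alike. The next highest was ZT26 for Cyp2b9 and ZT22 for Cyp2b10. As the course of Cyp2b9 did not follow a cosine, its fitted peak (ZT19.10, standard error 1.64 h) was not read as a shared time.

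A further P450 profile lies outside the rule because its probe set carries the symbols of both Cyp2a4 and Cyp2a5, a steroid hydroxylase and a coumarin hydroxylase of nearly identical sequence. The joint signal was 5578, 6023, 10268, 10636, 9979, 7161 and 4831 units from ZT02 to ZT26. Values at ZT10, ZT14 and ZT18 were all above those of the other 4 arrays. Over the 12909 probe sets with any symbol and a mean above 85 units, of which limma called 4.28%, its amplitude was 0.57 (standard error 0.06) with a peak at ZT14.41 (standard error 0.457 h, limma, adjusted p = 0.0251). The call was kept without ZT10 or ZT22 and lost without ZT02 (adjusted p 0.0804), ZT06 (0.0592), ZT14 (0.0758), ZT18 (0.0616) or ZT26 (0.0767). Which of the 2 genes carried the rhythm cannot be told apart on this probe set. Cyp2a12, the single Cyp2a member above the minimum, had an amplitude of 0.01 (standard error 0.03).

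**Figure D2:**
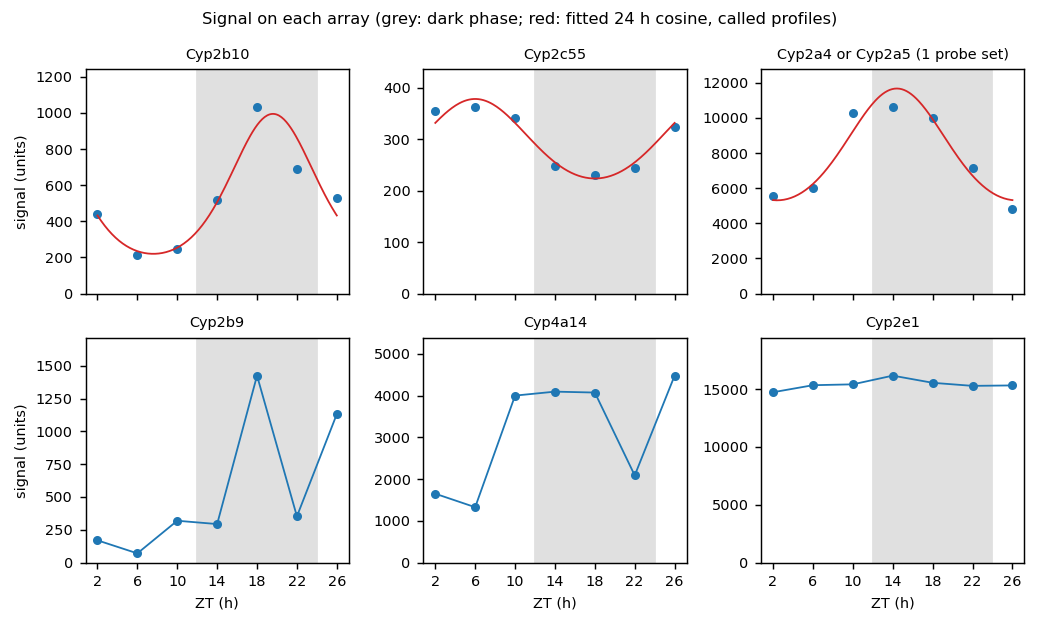
Signal in units on each array against ZT for 6 probe sets, with the dark phase in grey and the fitted cosine in red for the 3 called profiles (Cyp2b10, Cyp2c55 and the shared Cyp2a4 and Cyp2a5 probe set). Lines in the lower row join the arrays of Cyp2b9, Cyp4a14 and Cyp2e1, with steps between neighbouring arrays in Cyp2b9 and Cyp4a14, while Cyp2e1 stays between 14731 and 16166 units.

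Of the Cyp4a genes, Cyp4a14 and Cyp4a10, which oxidise long-chain fatty acids, were low at ZT02, ZT06 and ZT22 and high on the other 4 arrays, with ZT26 and ZT02, the same hour of the day, on opposite sides. Cyp4a14 measured 1650, 1327, 4003, 4097, 4076, 2089 and 4481 units from ZT02 to ZT26, a 3.38-fold range. For Cyp4a10 the values were 3129, 3339, 4191, 4250, 4378, 3412 and 4378 units, a 1.40-fold range with the same arrays on each side. Cyp4a31 also had its 3 lowest values at ZT02, ZT06 and ZT22, with 1321 units at ZT22 and 1883 units at ZT14. A probe set shared by Cyp4a10, Cyp4a31 and Cyp4a32 had its 3 lowest values on the same arrays (3571 to 3745 units, against 4410 to 4727 units on the others). Signals of these near copies may overlap, so they do not count as separate observations.

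None of the 5 Cyp4a genes was called (limma, 0 also at an unadjusted p under 0.05). The amplitude was 0.53 in Cyp4a14 (standard error 0.30, with an adjusted p of 0.480) and 0.16 in Cyp4a10 (standard error 0.09, with an adjusted p of 0.470). Without ZT26 the adjusted p of Cyp4a14 was 0.103, the lowest with 1 array left out. Cyp4a12a and Cyp4a12b, a pair of fatty acid hydroxylases with more mRNA in male than in female mice, had another course, with the highest value at ZT06 (6365 and 6567 units) and the lowest at ZT26 (4790 and 4997 units). Their adjusted p were 0.848 and 0.730.

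Within the Cyp3a subfamily a pair of genes had fitted peaks far apart, with small swings that did not pass the threshold. As neither gene was called, these peaks were not read as times of a rhythm. Cyp3a25 measured 8423, 8296, 7687, 7216, 6688, 7332 and 8101 units from ZT02 to ZT26, with its highest values at ZT02 and ZT06 and its lowest at ZT18. Its amplitude was 0.16 (standard error 0.03) with a fitted peak at ZT4.98 (standard error 0.735 h, limma, adjusted p = 0.0648). It was called with a further quantile normalization (adjusted p 0.0479) and with an intensity trend in limma's prior (0.0266). The adjusted p of Cyp3a25 was 0.105 to 0.207 with 1 array left out, 0.126 with a linear trend in time and 0.110 with no minimum. A probe set shared by Cyp3a25, Cyp3a57 and Cyp3a59 had its highest value at ZT02 (4049 units) and its lowest at ZT18 (2494 units, adjusted p = 0.155). Cyp3a13 measured 2267, 2089, 2165, 2387, 2503, 2474 and 2161 units and was highest at ZT18, with an amplitude of 0.14 (standard error 0.03) and a fitted peak at ZT18.62 (standard error 0.732 h, adjusted p = 0.0783). With 1 array left out the adjusted p of Cyp3a13 was 0.125 to 0.202 (limma). Cyp3a11 and Cyp3a44 had amplitudes of 0.04 each (standard errors 0.04 and 0.05).

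Amplitudes by subfamily were lowest in Cyp2d and highest in Cyp2b, where subfamilies with several members above the minimum are set side by side. The medians were 0.05 in the 7 Cyp2d genes (0.04 to 0.11), 0.08 in the 11 Cyp2c genes (0.02 to 0.38), 0.09 in the 4 Cyp3a genes (0.04 to 0.16), 0.10 in the 4 Cyp4f genes (0.07 to 0.13), 0.12 in the 3 Cyp2j genes (0.06 to 0.22), 0.15 in the 5 Cyp4a genes (0.06 to 0.53) and 1.21 in Cyp2b9 and Cyp2b10. Members share sequence and are not replicates, so subfamilies were not tested against each other. Among the Cyp2d genes the largest amplitude was that of the pseudogene Cyp2d37-ps, 0.11 (standard error 0.04), and that of Cyp2d9, a male-predominant steroid hydroxylase, was 0.09 (standard error 0.05). The highest array was a light one in all 3 Cyp2j genes, which oxidise arachidonic acid, but most of the 7 arrays were light. Limma called 0 of the 3, and the share with a light highest array was not counted over all tested probe sets. Cyp2j9 measured 398.1, 488.8, 508.1, 388.8, 341.0, 443.1 and 451.1 units from ZT02 to ZT26 (adjusted p = 0.218), Cyp2j5 varied by 1.11-fold around 6526 units, and Cyp2j6 by 1.30-fold around 805.3 units.

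In the Cyp4f subfamily, whose enzymes hydroxylate eicosanoids and fatty acids, Cyp4f14 measured 4204, 4027, 3923, 3867, 4464, 4558 and 4299 units, with the lowest value at ZT14 and the highest at ZT22 (amplitude 0.12, standard error 0.03, limma, adjusted p = 0.146). Cyp4f16 had the largest amplitude of the 4 (0.13, standard error 0.05, adjusted p 0.229), with 142.2 units at ZT02 and 109.6 to 125.1 units on the other arrays. Cyp4f13 and Cyp4f15 were highest at ZT10. Subfamilies with 1 member above the minimum had no call. Cyp2u1, a fatty acid hydroxylase, had 1046 units at ZT06 and between 705.6 and 813.6 units on the other arrays (adjusted p = 0.273). Cyp4b1, which oxidises fatty acids and furans, had 615.6 units at ZT22 and 592.9 units at ZT26 against 459.3 to 498.9 units on the others (adjusted p = 0.288). Cyp2r1, the vitamin D 25-hydroxylase, varied by 1.17-fold (adjusted p = 0.299) and Cyp1a2 by 1.12-fold (adjusted p = 0.662).

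**Figure D3:**
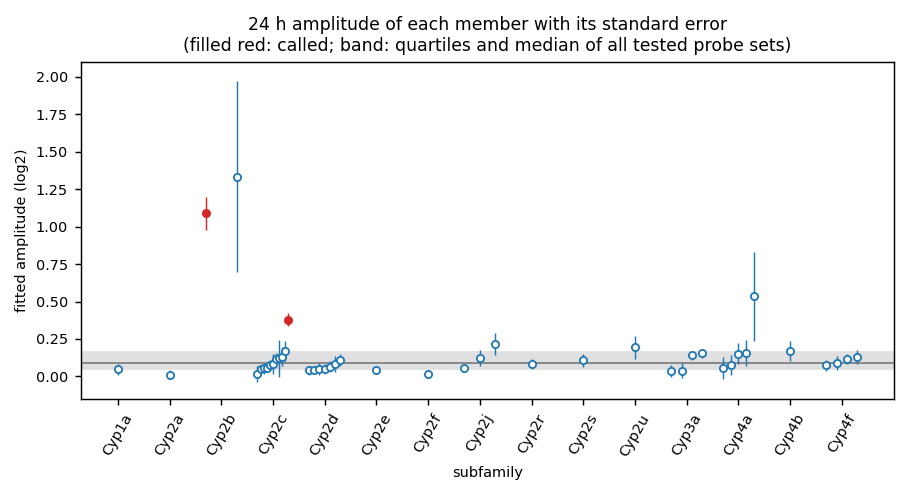
Fitted 24 h amplitude in log2 of each of the 44 members with its standard error, by subfamily, with called members in filled red and a grey band for the quartiles of all 12076 tested probe sets around their median of 0.09. Cyp2b10 at 1.09 and Cyp2c55 at 0.38 are the called members, and the uncalled Cyp2b9 and Cyp4a14 have long error bars.

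No single time of day dominated among the members. The highest array of the 44 genes was ZT02 for 8, ZT06 for 9, ZT10 for 6, ZT14 for 7, ZT18 for 5, ZT22 for 5 and ZT26 for 4. The lowest array was ZT18 for 12 genes and ZT06 for 9, and the other arrays were lowest for 3 to 7 genes each. Such counts were not made over all tested probe sets, and 42 of the 44 members had no called rhythm. The median deviation of the members from their own means lay between -0.02 and 0.01 in log2 on every array.

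The arrays of ZT26 and ZT02 repeat a clock time in separate pools on consecutive days and show how far pools can differ. The size of the difference between ZT26 and ZT02 had a median of 0.08 in log2 in the 44 members and 0.09 in all tested probe sets. It exceeded 1.5-fold in 2 members (4.55%), against 0.662% of all tested probe sets. Cyp2b9 had 1132 units at ZT26 and 169.4 units at ZT02, a difference of 2.74 in log2, and Cyp4a14 had 4481 units at ZT26 and 1650 units at ZT02, a difference of 1.44. Cyp4a10 differed by 0.48 and Cyp2b10 by 0.27. ZT26 was above ZT02 in 19 of the 44 members (63.2% of all tested probe sets were higher at ZT26). It was above in 0 of the 4 Cyp3a genes, but their differences were only -0.07 to -0.001. These were smaller in size than the median of 0.09 in all tested probe sets. With 1 array each there is no test of these differences.

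**Figure D4:**
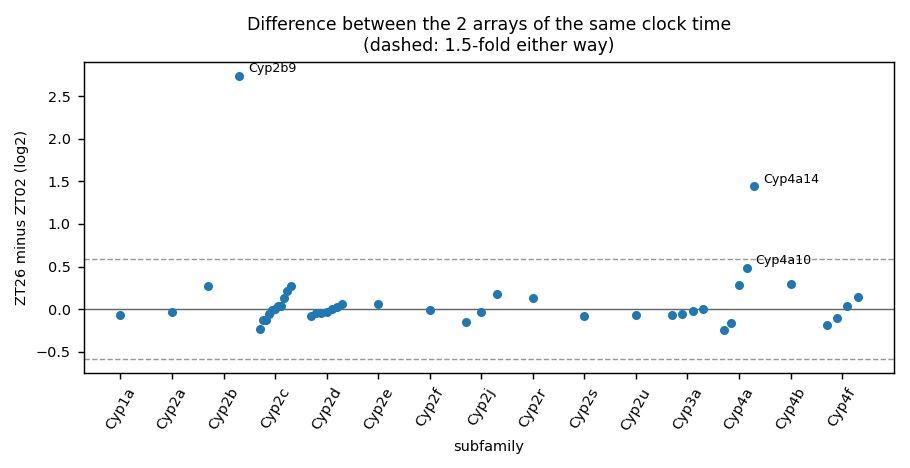
Log2 signal at ZT26 minus that at ZT02 for each of the 44 members, by subfamily, with dashed lines at 1.5-fold either way. Cyp2b9 at 2.74 and Cyp4a14 at 1.44 lie outside the lines and all other members inside them.

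Of genes that serve P450 enzymes, 5 of 7 listed electron donors were measured, since Por and Fdxr had no probe set with 1 symbol. Limma called 0 of the 5, against 4.47% of all tested probe sets. At an unadjusted p under 0.05 there were 3 (Cyb5b, Cyb5r1 and Fdx1, adjusted p 0.0944, 0.152 and 0.123), against 25.7% of all. Cyb5a and Cyb5r3, cytochrome b5 and its reductase, had amplitudes of 0.04 and 0.01 (standard errors 0.03 each). Of 10 genes of heme synthesis and breakdown 2 were called, against 4.47% of all tested probe sets. Alas1, which makes the heme precursor 5-aminolevulinate, had 1652, 2348, 7059, 7253, 4257, 2918 and 1648 units from ZT02 to ZT26, so that the ZT10 and ZT14 arrays stood above the rest. Its amplitude was 1.09 (standard error 0.11) with a peak at ZT13.58 (limma, adjusted p = 0.0186), while that of Cyp2b10 was at ZT19.60. Hmox1, the heme oxygenase, had an amplitude of 0.30 and a peak at ZT20.6 (adjusted p = 0.0481). Alas1 was not called without ZT02, ZT14 or ZT26 (highest adjusted p 0.0888) and Hmox1 was not called without any 1 of the arrays (highest 0.126).

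Of 13 tested receptors and partners 3 were called (Ppara, Ppard and Nr0b2), against 4.47% of all tested probe sets. Ppara peaked at ZT10.5 (limma, adjusted p = 0.0134). Ppard, a related fatty acid receptor, peaked at ZT22.4 (0.0424) and Nr0b2, a repressor of nuclear receptors, at ZT1.57 (0.00937). Nr1i3 measured 1743, 1909, 3576, 2677, 2681, 2305 and 1920 units from ZT02 to ZT26, with the highest value at ZT10 (amplitude 0.38, standard error 0.10, limma, adjusted p = 0.130), and Nr1i2 had an amplitude of 0.24 with adjusted p = 0.146. Ahr had an amplitude of 0.01 (standard error 0.03). The PAR bZIP list holds the output factors Dbp, Tef and Hlf and the repressor Nfil3, which binds the same sites. All 4 were called, against 4.47% of all tested probe sets. Dbp peaked at ZT10.9 (adjusted p = 0.0151), Tef at ZT12.3 (0.0262), Hlf at ZT13.8 (0.0304) and Nfil3 at ZT23.1 (0.0340). Without single arrays, Ppara and Nr0b2 were lost without ZT02 only (adjusted p 0.0633 each), Dbp without ZT02, ZT10 or ZT14 (highest 0.0672), Ppard in all but the fit without ZT06 (highest 0.137), Tef in 5 of 7 fits (kept without ZT10 or ZT22, highest 0.0878), and Hlf and Nfil3 in all but 1 each (highest 0.133 and 0.101).

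Of 9 tested targets of Ppara 3 were called, against 4.47% of all tested probe sets. They were Pdk4, an inhibitor of pyruvate oxidation, Cpt1a, which admits fatty acids to mitochondria, and Angptl4, an inhibitor of lipoprotein lipase. Peaks of the 3 were at ZT23.8, ZT10.1 and ZT8.29. All 9 tested targets were higher at ZT26 than at ZT02, against 63.2% of all tested probe sets. Their median difference was 0.14 in log2. The smallest were 0.05 in Fabp1, 0.06 in Ehhadh and 0.07 in Acaa1b, against a median size of 0.09 in all tested probe sets. The largest were those of Acot1, an acyl-CoA thioesterase (158.1 units at ZT26 and 92.5 units at ZT02), and Vnn1, a pantetheinase (1143 and 726.8 units). Of 12 tested P450 genes outside families 1 to 4 limma called 3, all with peaks in the dark, namely Cyp7a1 and Cyp39a1 of bile acid synthesis at ZT15.0 (adjusted p = 0.00248) and ZT16.2 (0.0401), and Cyp26a1, which degrades retinoic acid, at ZT21.4 (0.0267). Their share of 25% stands beside the 4.55% of families 1 to 4 and the 4.47% of all tested probe sets, as a description. Cyp7a1 was called with each array left out in turn, Cyp26a1 without ZT02 only (highest adjusted p 0.0888), and Cyp39a1, Cpt1a, Angptl4 and Pdk4 in 0, 0, 1 and 2 of the 7 such fits (highest 0.147, 0.144, 0.115 and 0.0897).

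**Figure D5:**
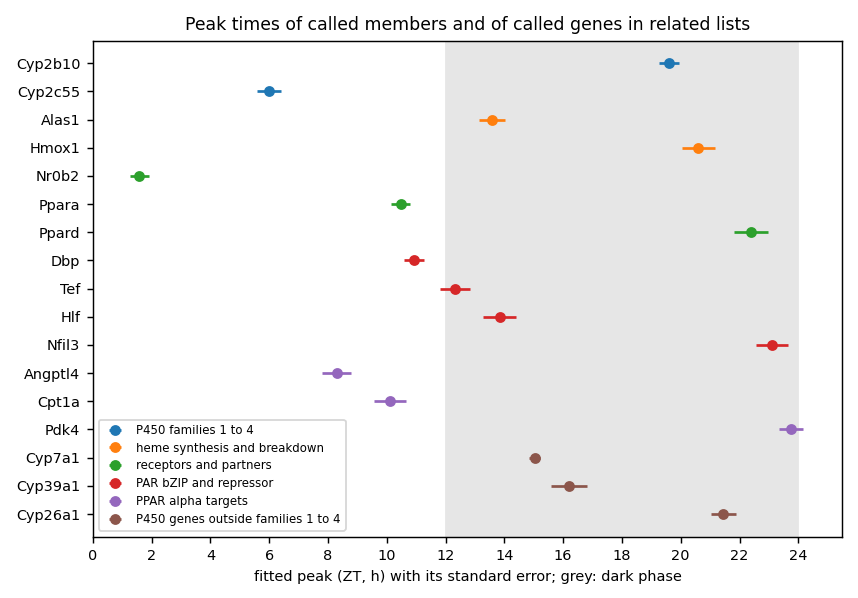
Fitted peak time in ZT with its standard error for the 2 called members and for the called genes of 5 related lists, with the dark phase in grey. Cyp2b10 at ZT19.60 and Cyp2c55 at ZT6.00 bracket Dbp, Tef, Hlf and Alas1, which lie between ZT10.9 and ZT13.8.

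The arrays were alike over the whole table, with medians of 6.37 to 6.40 in log2 and mean correlations with the others of 0.991 to 0.993. Hepatocyte markers were high throughout, and 0 of the 7 listed genes were called (limma, 1 at an unadjusted p under 0.05, Fgb), with a summed signal of 89765 to 94518 units. For Kupffer cells, which are resident macrophages, the summed signal of 9 markers was lowest at ZT10 (5030 units) and highest at ZT26 (8014 units). Limma called 5 of the 8 above the minimum, against 4.47% of all tested probe sets. Of these 5, Lyz2 was lost without ZT02 only (adjusted p 0.0575) and Clec4f, Adgre1, C1qb and Vsig4 without any 1 array (highest 0.142). For endothelial cells 6 of 6 and for stellate cells 5 of 5 markers were above the minimum, with summed signals of 5310 to 6814 and 6297 to 7594 units, both highest at ZT22. Clec4g (2478 units) and Dcn (4999 units) had the highest means of these lists. Stab2, Des and Reln were highest at ZT26, Col1a1 at ZT02 and the other markers at ZT22. Limma called 0 of them, with 1 endothelial and 4 stellate markers at an unadjusted p under 0.05 (25.7% of all tested probe sets). The lymphocyte, cholangiocyte and erythroid lists had 2, 1 and 1 markers above the minimum, all at an unadjusted p under 0.05 and 0 called. Cyp2b10 was highest at ZT18 and Cyp2c55 at ZT06, and the part of other cell types in their profiles was not tested. In whole liver, fewer cells of a type and less RNA per cell cannot be told apart.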

How the data were processed

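The deposited values are log2 signals of 7 arrays of Mouse Gene 1.0 ST type, which the authors obtained by RMA in Affymetrix Expression Console (version 1.1.2637.26569, per the submitters' processing notes). RMA subtracts background, normalizes arrays to one distribution and summarises probes. Such summaries can give a gene exactly the same value on several arrays. Probe sets were named with GEO's platform annotation (21789 with 1 symbol, 1621 with several, 12146 not named), and neighbours and promoters with RefSeq GRCm38.p6. A cosine with a 24 h period was fitted to these values (R 4.3.3, limma 3.58.1: lmFit, eBayes and a moderated F-test with 4 residual degrees of freedom). Units are 2 to the power of the log2 value. With 1 pool per time, p-values measure departure from a flat profile over these pools, and the number of arrays limits precision. The fit was tested on simulated data. Named with values were called members, the member of highest mean in each subfamily with a member above 85 units, that of largest amplitude in those with 3 or more such members, and those next to the minimum. Others were chosen after their values were seen. The members, gene lists and tests were chosen with earlier results of these data known. Alternatives covered the expression minimum, the set adjusted over, normalization, the test and arrays left out.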

Additional observations from a re-analysis of the deposited data

How the results depend on the processing

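The count of 2 rhythmic members was the same, with Cyp2b10 and Cyp2c55 in each case, with a minimum of 43 or 170 units, adjustment over all probe sets, arrays centred on their medians, robust eBayes, natural-scale values, probe sets averaged per gene and the thresholds of the methods, which 13.6% of all tested probe sets passed. A further quantile normalization and an intensity trend each gave 3, with Cyp3a25 added. It fell to 0 with no minimum (adjusted p 0.0596 for both genes, 57 of 21789 probe sets called), with a linear trend in time (0.0676 and 0.0640) and with Fisher's test for one period after Benjamini-Hochberg adjustment (0.197 and 0.196), which called 0 of 12076 probe sets, whereas 7 members had an unadjusted p under 0.05 in that test, as did 17.4% of all tested probe sets. With 1 array left out the count ranged between 0 and 2. Over all tested probe sets, 540 calls became 321 of 15696 with a minimum of 43 units, 195 of 17683 with unnamed probe sets included, 98 with a linear trend and 13 to 312 with 1 array left out. The cause was not tested, other than that these fits hold fewer arrays or residual degrees of freedom or more probe sets. Calls rose to 703 of 8993 with a minimum of 170 units (7.82%) and 772 with a further quantile normalization (6.39%). They were 657 with an intensity trend (5.44%) and 570 with arrays centred on their medians (4.72%). As 0.5 times the difference of the highest and lowest array in place of the cosine amplitude, the subfamily medians were 1.66 (Cyp2b), 0.15 (Cyp2c), 0.090 (Cyp2d), 0.19 (Cyp2j) and 0.24 (Cyp4a), and with 1 array left out they ranged from 0.89 to 1.52, 0.07 to 0.12, 0.048 to 0.085, 0.060 to 0.17 and 0.10 to 0.23. The lowest Cyp2j median came without ZT06 and the highest Cyp4a median without ZT26. The centring and quantile settings for ZT26 against ZT02 and for amplitudes were chosen after seeing the data, and left 2 members past 1.5-fold in both. No paired analysis was possible because each time point has 1 array.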

Other observations

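Genes known to differ between male and female mouse liver had unlike profiles on these arrays of male livers. Among female-predominant forms, Cyp2b9 ranged over 20.4-fold, while Cyp3a44, a steroid hydroxylase, stayed between 336.5 and 392.7 units, and Cyp2b13 and Cyp3a16 were near 10.2 and 12.9 units, at background. A probe set shared by Cyp3a41a, Cyp3a41b and Cyp3a44 varied by 1.09-fold. All 4 listed male-predominant members, Cyp2d9, Cyp2a12, Cyp4a12a and Cyp4a12b, had less signal at ZT26 than at ZT02, with differences from -0.25 to -0.03 in log2, and limma called 0 of them (0 at an unadjusted p under 0.05). ZT26 was above ZT02 in 19 of the 44 members and in 63.2% of all tested probe sets. The differences of Cyp2a12 (-0.03) and Cyp2d9 (-0.05) were smaller than the median size of 0.09 in all tested probe sets. Outside families 1 to 4 and apart from these sex-biased lists, ZT26 was above ZT02 in 5 of 12 tested P450 genes (63.2% of all tested probe sets). Cyp17a1, an enzyme of steroid synthesis, had 386.0 units at ZT26 and 732.6 units at ZT02. The values were 329.7 and 534.0 units for Cyp26a1, and 3491 and 4657 units for Cyp7b1, an oxysterol hydroxylase. Cyp8b1 went the other way, with 4029 units at ZT26 and 3418 units at ZT02.

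Several symbols, a P450 gene of families 1 to 4 among them, were carried by 7 probe sets. Highest over lowest array was 2.20-fold for that of Cyp2a4 and Cyp2a5, the single one called. It was 1.62-fold for that of Cyp3a25, Cyp3a57 and Cyp3a59 and 1.32-fold for that of Cyp4a10, Cyp4a31 and Cyp4a32. Others varied less. That of Cyp2c40, Cyp2c67, Cyp2c68 and Cyp2c69 varied by 1.08-fold around 4331 units, and that of Cyp4v3 and Klkb1 by 1.13-fold around 5079 units.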
